A study of Homo sapiens with 82 samples.

Results

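The dual-specificity phosphatases (DUSPs) that act in the feedback of mitogen-activated protein kinase (MAPK) signalling were followed across 2 time points and 4 treatments of HT29 cells, a human colorectal adenocarcinoma cell line. The members were taken by gene symbol from a list drawn up with earlier results of these data known: DUSP1, DUSP2, DUSP4, DUSP5, DUSP6, DUSP7, DUSP8, DUSP10, DUSP14 and DUSP16. These are 10 of the 51838 gene rows in each table of RNA-seq counts, and each symbol matched 1 row. All 10 members passed the filter for low counts at 24 h, at 48 h and over all libraries.

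Cells were treated with the carrier DMSO, the LXR agonist GW3965, the LXR agonist T0901317 or the PPARG agonist rosiglitazone for 24 or 48 h, and mRNA was sequenced. The LXRs (liver X receptors) and PPARG (peroxisome proliferator-activated receptor gamma) are nuclear receptors that respond to sterols and to lipids, respectively. Each drug was dissolved in DMSO and given at 10 µM, with separate DMSO controls for 24 and 48 h, which gave 8 groups of 4 libraries and 32 libraries in all. All groups are the same cell line, with no engineered change given in the labels, and according to the study's methods the cells were grown in medium with charcoal/dextran-treated serum and without phenol red before the drugs were added. The methods describe treatments in quadruplicate but do not say whether replicates were separate cultures on separate days, so p-values measure only the spread between these libraries.

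MAP kinases are switched on by phosphorylation of a threonine and a tyrosine in their activation loop, and the MAPK phosphatases among the DUSPs remove both phosphates. Several DUSP genes are themselves transcribed in response to MAPK signalling, so that their products form a negative feedback on ERK, JNK and p38. DUSP1, DUSP2, DUSP4 and DUSP5 are inducible phosphatases of the nucleus, DUSP6 and DUSP7 are cytoplasmic phosphatases that prefer ERK, and DUSP8, DUSP10 and DUSP16 prefer JNK and p38. DUSP14 is a small, atypical DUSP without the MAPK-binding domain of the others.

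A library of 24 h held 21044798 to 51332656 counts, and a library of 48 h held 32312041 to 50938082. Levels are given as CPM, the counts of a gene per megacount of the library, with library totals scaled by the trimmed mean of M-values (TMM) over all 32 libraries. They are not divided by transcript length and are therefore compared between groups and not between genes. A gene was called when the Benjamini-Hochberg adjusted p of edgeR's quasi-likelihood test over all genes tested was under 0.01, and rose, fell, higher and lower are used of called differences only, whereas above, below and lay describe values. All 4 LXR targets chosen as checks, among them the sterol transporter gene ABCA1 with a log2 fold change of 5.77 ± 0.13 (SE), were higher with GW3965 at 48 h, and PDK4, a known PPARG target, was higher by 3.18 ± 0.11 with rosiglitazone and by 2.29 ± 0.11 with GW3965. Of the PPARG targets chosen as checks only PDK4 is given, and its rise was not particular to rosiglitazone. Summed over 9 markers of colon epithelium, none of them at 0 in all libraries, levels at 48 h lay between 17419 and 18516 CPM with DMSO, 16530 and 17261 CPM with GW3965, 14718 and 16261 CPM with T0901317, and 18691 and 22304 CPM with rosiglitazone. Gene by gene the same markers did not follow these sums. With GW3965 5 of the 9 were higher than in DMSO and 0 lower, with a median log2 fold change of 0.43. With T0901317 3 were higher and 2 lower, and with rosiglitazone 3 were higher and 3 lower. Of all genes tested, 16.1% were higher and 17.5% lower with GW3965, and 14% higher and 16.1% lower with T0901317. With rosiglitazone 12.3% were higher and 13.1% lower. The count of markers lower with T0901317 is near the share over all genes. In all 32 libraries the summed levels of 5 fibroblast markers lay between 2.44 and 8.72 CPM, those of 4 immune markers between 0.463 and 3.99 CPM and those of 2 endothelial markers between 0 and 0.586 CPM. Of the immune markers only CD14 was abundant enough for the test at 48 h, and it was higher with GW3965 (log2 1.94 ± 0.19) and T0901317 (2.54 ± 0.19), at group means of 2.32 and 3.52 CPM against 0.598 CPM in DMSO. The part of these markers in the results below was not tested. Fewer cells of a given state and less RNA per cell cannot be told apart in these bulk libraries.

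At 48 h, both LXR agonists lowered most members and rosiglitazone did not. With GW3965, 8 of 10 members were lower than in DMSO and 0 were higher, whereas 17.5% of all genes tested were lower and 16.1% higher. With T0901317, 8 of 10 were lower and 0 higher, against 16.1% lower and 14% higher among all genes. In each case 5 members fell by at least 2-fold, a change that 2.54% of all genes showed with GW3965 and 2.59% with T0901317. The lower members were the same 8 genes with both agonists, namely DUSP1, DUSP2, DUSP4, DUSP5, DUSP6, DUSP8, DUSP14 and DUSP16. No member was above DMSO at an unadjusted p under 0.05 with either agonist, and DESeq2 also called 0 higher. The median log2 fold change of the members was -1.03 with GW3965 and -0.99 with T0901317, against 0.00 and 0.01 over all genes. Rosiglitazone gave the other picture, with 4 members higher (12.3% of all genes) and 1 lower (13.1%), and a median of 0.24. The 3 drugs share the same 4 DMSO libraries at a time point, so their comparisons are not independent.

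At 24 h, few members differed. Neither LXR agonist changed a member, and the background was 1.86% of genes higher and 0.868% lower with GW3965, and 1.33% higher and 0.119% lower with T0901317. At an unadjusted p under 0.05, the values with GW3965 were DUSP5 (log2 0.29 ± 0.14), DUSP6 (0.11 ± 0.05) and DUSP16 (-0.26 ± 0.09), and those with T0901317 were DUSP2 (-0.30 ± 0.10) and DUSP4 (0.25 ± 0.08). DESeq2 likewise called 0 members with either agonist. Rosiglitazone raised 1 member, DUSP7, and lowered 3, DUSP4, DUSP16 and DUSP6, while 5.81% of all genes were higher and 6.52% lower. The plot of fold changes against DMSO shows the difference between the time points.

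**Figure D1:**
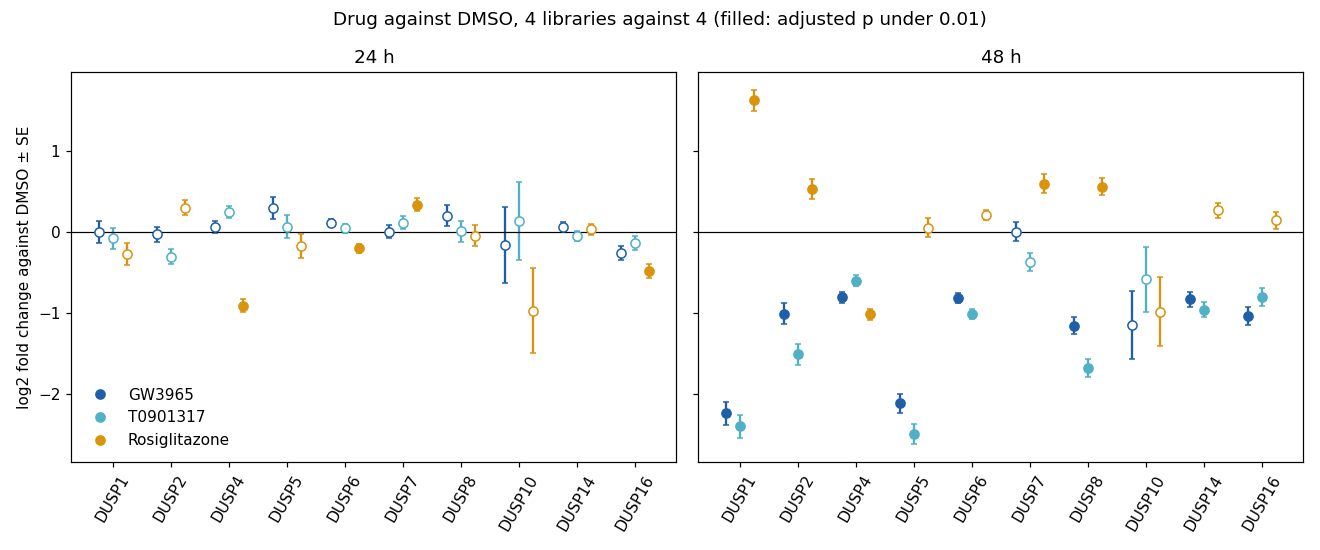
Log2 fold change of each DUSP against the DMSO group of the same time point, with its standard error, for GW3965 (dark blue), T0901317 (light blue) and rosiglitazone (gold), 4 libraries against 4; filled points have an adjusted p under 0.01. At 24 h all values with the LXR agonists are open, whereas at 48 h 8 members with each LXR agonist are filled and below 0.

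DUSP1 (ENSG00000120129.4), an immediate early gene whose product inactivates p38, JNK and ERK in the nucleus, varied most between groups, with a 22.6-fold range of group means. At 24 h the 16 libraries lay between 3.43 and 6.04 CPM. At 48 h the DMSO libraries held 31.03, 24.6, 29.6 and 30.0 CPM. The GW3965 libraries held 6.24, 5.47, 7.23 and 5.46 CPM and the T0901317 libraries 4.67, 5.06, 6.21 and 5.86 CPM. Both sets overlapped with the values of 24 h and lay far below DMSO. The rosiglitazone libraries held 64.2, 90.3, 111 and 94.2 CPM, each more than any DMSO library. Relative to DMSO at 48 h, DUSP1 was 4.72-fold lower with GW3965 (log2 -2.24 ± 0.14, adjusted p = 4.4e-10), 5.28-fold lower with T0901317 (-2.40 ± 0.15, adjusted p = 2.1e-10) and 3.08-fold higher with rosiglitazone (1.62 ± 0.13, adjusted p = 1.3e-08).

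DUSP8 (ENSG00000184545.6), a phosphatase of JNK and p38, followed the same order at higher counts, from 1061 to 12656 per library. At 24 h it lay between 46.1 and 75.1 CPM in all 16 libraries. At 48 h the DMSO libraries held 238, 218, 201 and 235 CPM, those with GW3965 105, 89.9, 115 and 91.6 CPM, those with T0901317 72.2, 64.2, 60.6 and 81.3 CPM, and those with rosiglitazone 331, 395, 316 and 291 CPM. The 4 groups of 48 h did not overlap with each other. DUSP8 was 2.23-fold lower with GW3965 (log2 -1.16 ± 0.10, adjusted p = 3.8e-08), 3.20-fold lower with T0901317 (-1.68 ± 0.11, adjusted p = 3.6e-10) and 1.47-fold higher with rosiglitazone (0.56 ± 0.10, adjusted p = 0.00026). Pseudogene copies of DUSP8 can take up some of its reads, and the 2 rows for such copies held at most 28 and 147 counts in a library.

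DUSP1, DUSP8 and DUSP2 were the members that fell with both LXR agonists and rose with rosiglitazone at 48 h. The promoters of DUSP1 and DUSP8 are shown because they share a sequence element. RefSeq windows of GRCh38.p14 were found for 8 of 10 members, without DUSP4 and DUSP5, and the 250 bases before the annotated start were searched on both strands. The cAMP response element, TGACGTCA, is printed in capitals in the sequences below, which run 5′ to 3′ along the gene. Counted from the start, it begins at position -125 in DUSP1 and at positions -118 and -74 in DUSP8. It was found in 2 of the 8 members searched and in 1.65% of all 35116 windows of the same length. The element is one of several motifs searched, printed because of these matches, and the DUSP2 window did not hold it. The share over all windows is given as a background and not as a test. The DUSP1 window is chr5:172771196-172771445 on the minus strand, and that of DUSP8 is chr11:1572272-1572521 on the minus strand.
DUSP1: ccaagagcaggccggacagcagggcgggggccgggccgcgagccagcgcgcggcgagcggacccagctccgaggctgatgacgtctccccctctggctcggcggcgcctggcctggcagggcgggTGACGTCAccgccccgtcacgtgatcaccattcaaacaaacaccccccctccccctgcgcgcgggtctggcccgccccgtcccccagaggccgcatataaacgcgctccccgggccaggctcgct
DUSP8: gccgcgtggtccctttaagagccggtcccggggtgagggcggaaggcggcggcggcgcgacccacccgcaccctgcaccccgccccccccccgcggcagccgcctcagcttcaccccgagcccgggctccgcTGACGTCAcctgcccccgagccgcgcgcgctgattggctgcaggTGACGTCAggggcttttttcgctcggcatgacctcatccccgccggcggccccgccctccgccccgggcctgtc
The element contains the half-site TGACG on each strand, which alone was found in 21.2% of all windows and which DUSP1 held at 2 further places. The E-box CACGTG was found in DUSP1, where it overlaps a half-site, and in DUSP2, against 6.34% of all windows. The AP-1 element TGANTCA (6.57% of all windows), the ETS element CCGGAAG (8.52%), the CArG box (1.16%), the LXR element, AGGTCA repeated after 4 bases (0.0142%), and the PPAR element, AGGTCA repeated after 1 base (0.0171%), were found in no window of the 8 members. These matches describe letters in these windows and not binding.

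DUSP5 (ENSG00000138166.4), a nuclear phosphatase specific for ERK, fell more with the LXR agonists than any other member apart from DUSP1 with GW3965. It lay between 3.05 and 5.58 CPM in the 16 libraries of 24 h. At 48 h it held 24.7, 22.9, 29.3 and 29.3 CPM with DMSO, 6.89, 5.09, 6.56 and 5.97 CPM with GW3965, and 4.75, 4.54, 4.51 and 5.03 CPM with T0901317. The LXR agonist libraries again overlapped with those of 24 h and not with DMSO at 48 h. With rosiglitazone the values were 22.8, 25.2, 33.7 and 30.2 CPM and overlapped with DMSO. DUSP5 was 4.34-fold lower with GW3965 (log2 -2.12 ± 0.12, adjusted p = 9.6e-11) and 5.63-fold lower with T0901317 (-2.49 ± 0.12, adjusted p = 1.2e-11). With rosiglitazone its log2 fold change was 0.05 ± 0.11 (95% interval -0.18 to 0.29), which did not pass. The 2 rows for pseudogene copies of DUSP5 held at most 23 and 1 counts in a library.

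DUSP2 (ENSG00000158050.4), a nuclear phosphatase best known from activated immune cells, lay between 8.20 and 15.8 CPM in the 16 libraries of 24 h. At 24 h its rosiglitazone libraries, at 15.8, 14.1, 13.5 and 14.2 CPM, were above all DMSO libraries, but the value of 0.30 ± 0.09 missed the threshold (adjusted p = 0.030). At 48 h it moved in both directions. The DMSO libraries held 14.6, 11.2, 13.3 and 13.5 CPM, the GW3965 libraries 7.68, 6.91, 5.34 and 6.26 CPM, the T0901317 libraries 5.40, 4.83, 3.49 and 4.69 CPM, and the rosiglitazone libraries 20.7, 21.9, 17.3 and 17.0 CPM. All libraries with an LXR agonist were below all DMSO libraries, and all with rosiglitazone were above them. DUSP2 fell by 1.01 ± 0.13 (log2) with GW3965 and by 1.51 ± 0.13 with T0901317, and rose by 0.53 ± 0.12 with rosiglitazone (adjusted p = 0.0023). The last call was lost without 48 h DMSO replicate 2, with an adjusted p of 0.0110, without 48 h rosiglitazone replicate 2, with 0.0112, and with scaling by library size alone, with 0.028 and a value of 0.35. Unlike DUSP1, DUSP5 and DUSP8, its mean with the LXR agonists at 48 h, 6.55 ± 0.99 (SD, n = 4) and 4.60 ± 0.81 CPM, was also below that of DMSO at 24 h, 11.7 ± 1.1 CPM.

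DUSP4 (ENSG00000120875.4), a nuclear phosphatase of ERK and JNK, was the 1 member lower with all 3 drugs at 48 h and with rosiglitazone at both times. At 24 h the DMSO libraries held 22.9, 20.2, 18.9 and 21.7 CPM and the rosiglitazone libraries 11.8, 11.2, 10.97 and 10.6 CPM. At 48 h the DMSO libraries held 37.997, 31.8, 30.95 and 33.3 CPM and the rosiglitazone libraries 15.7, 16.7, 17.7 and 17.0 CPM. The groups did not overlap at either time. DUSP4 was 1.88-fold lower at 24 h (log2 -0.91 ± 0.08, adjusted p = 6.5e-08) and 2.02-fold lower at 48 h (-1.02 ± 0.07, adjusted p = 1.5e-09), and the responses at the 2 times differed by -0.09 ± 0.10, which did not pass (adjusted p = 0.69). With the LXR agonists it fell only at 48 h, by 0.81 ± 0.07 with GW3965 and 0.60 ± 0.07 with T0901317, and the differences between the times, -0.86 ± 0.10 and -0.85 ± 0.10, were called.

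DUSP6 (ENSG00000139318.6), a cytoplasmic phosphatase specific for ERK and a widely used readout of ERK activity, showed small spread within groups, with a coefficient of variation of at most 6.58%. At 48 h the DMSO libraries held 70.7, 69.0, 75.4 and 71.4 CPM, the GW3965 libraries 40.3, 38.3, 44.3 and 40.8 CPM and the T0901317 libraries 35.6, 36.9, 32.5 and 36.4 CPM. The LXR agonist libraries lay between the DMSO libraries of 24 h, at 29.3 to 31.1 CPM, and those of 48 h. DUSP6 was 1.76-fold lower with GW3965 (log2 -0.81 ± 0.06, adjusted p = 5.2e-09) and 2.02-fold lower with T0901317 (-1.02 ± 0.06, adjusted p = 2.9e-10). With rosiglitazone the direction differed between the times. At 24 h the value was -0.20 ± 0.05 (adjusted p = 0.0086), a call lost when any of 7 of the 8 libraries compared was left out. It was also lost with median-ratio scaling (0.0115), without the filter on low counts (0.042) and when only the groups compared were fitted (0.0173). At 48 h, the rosiglitazone libraries, at 79.6, 82.0, 91.9 and 81.8 CPM, were all above the DMSO libraries, with 0.21 ± 0.06 and an adjusted p of 0.013 that missed the threshold, while DESeq2 gave 0.0028 and the fit of all 32 libraries 0.0011. Of 14 alternatives 11 also left it uncalled, with values between 0.025 and 0.24 over all 14 and an adjusted p of up to 0.77. The response at 48 h minus that at 24 h, 0.43 ± 0.08, was called (adjusted p = 0.00080).

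DUSP7 (ENSG00000164086.8), the close relative of DUSP6 in the cytoplasm, did not follow it. It lay between 19.1 and 30.8 CPM at 24 h and between 9.13 and 24.7 CPM at 48 h. At 48 h it held 13.5, 12.3, 14.4 and 16.9 CPM with DMSO and 13.0, 15.7, 12.9 and 16.02 CPM with GW3965, which overlapped (log2 0.00 ± 0.11, 95% interval -0.23 to 0.24). With T0901317 its 12.1, 11.7, 9.13 and 11.2 CPM were below all DMSO libraries, with a log2 fold change of -0.37 ± 0.11 and an adjusted p of 0.013 that missed the threshold, though DESeq2 called it (0.0083) and so did the fit of all 32 libraries (0.0041). With rosiglitazone it held 19.7, 23.4, 24.7 and 19.9 CPM and was higher by 0.60 ± 0.11 (adjusted p = 0.00033). It was also higher with rosiglitazone at 24 h, by 0.34 ± 0.08 (adjusted p = 0.0048), a call that was lost when any of 6 of the 8 libraries compared was left out.

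DUSP16 (ENSG00000111266.4), a phosphatase of JNK and p38 that shuttles between nucleus and cytoplasm, held 55.0, 53.6, 53.5 and 55.4 CPM with DMSO at 48 h. It held 25.8, 24.7, 30.1 and 25.6 CPM with GW3965 and 28.0, 30.2, 31.9 and 34.5 CPM with T0901317, all below DMSO. It was 2.05-fold lower with GW3965 (log2 -1.04 ± 0.11, adjusted p = 1.8e-07) and 1.74-fold lower with T0901317 (-0.80 ± 0.11, adjusted p = 4.7e-06). At 24 h it was lower with rosiglitazone (-0.48 ± 0.09, adjusted p = 0.00051), where 16.3, 18.8, 16.7 and 13.3 CPM compared with 22.2, 23.2, 24.2 and 20.9 CPM in DMSO. At 48 h the rosiglitazone libraries held 45.8, 59.4, 73.0 and 65.3 CPM and surrounded the DMSO values (0.14 ± 0.10, 95% interval -0.08 to 0.36). The difference between those responses was 0.64 ± 0.14 (adjusted p = 0.0056), and it missed the threshold without any 1 of 8 of the 16 libraries compared.

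DUSP10 (ENSG00000143507.12), the third phosphatase of JNK and p38, was at the limit of detection. It had between 3 and 53 counts in a library, a level of 0.0821 to 1.497 CPM, and coefficients of variation of up to 76.1% within a group. No comparison called it. With DMSO at 48 h it held 0.411, 0.856, 0.561 and 1.497 CPM, and the log2 fold change with GW3965 was -1.15 with a standard error of 0.42, so that the smaller differences seen in other members could not be measured at this depth.

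DUSP14 (ENSG00000161326.8), the atypical member, held 37.7, 32.6, 38.9 and 38.7 CPM with DMSO at 48 h. The GW3965 libraries held 21.1, 21.4, 19.2 and 21.9 CPM and the T0901317 libraries 19.6, 19.8, 19.01 and 17.6 CPM, all below DMSO at either time. DUSP14 was 1.78-fold lower with GW3965 (log2 -0.83 ± 0.09, adjusted p = 5.4e-07) and 1.95-fold lower with T0901317 (-0.96 ± 0.09, adjusted p = 9.2e-08). With rosiglitazone at 48 h it held 37.4, 42.2, 54.5 and 46.4 CPM, which overlapped with DMSO (0.27 ± 0.09, adjusted p = 0.026), a difference that passed in the fit of all 32 libraries (0.0048) and without 48 h rosiglitazone replicate 1 (0.0022). It stayed uncalled in 13 of 14 alternatives, and over all 14 the value went down to 0.083 and the adjusted p up to 0.47. In this rosiglitazone group DUSP1, DUSP4, DUSP5, DUSP6, DUSP7, DUSP14 and DUSP16 were each lowest in replicate 1 and highest in replicate 3.

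**Figure D2:**
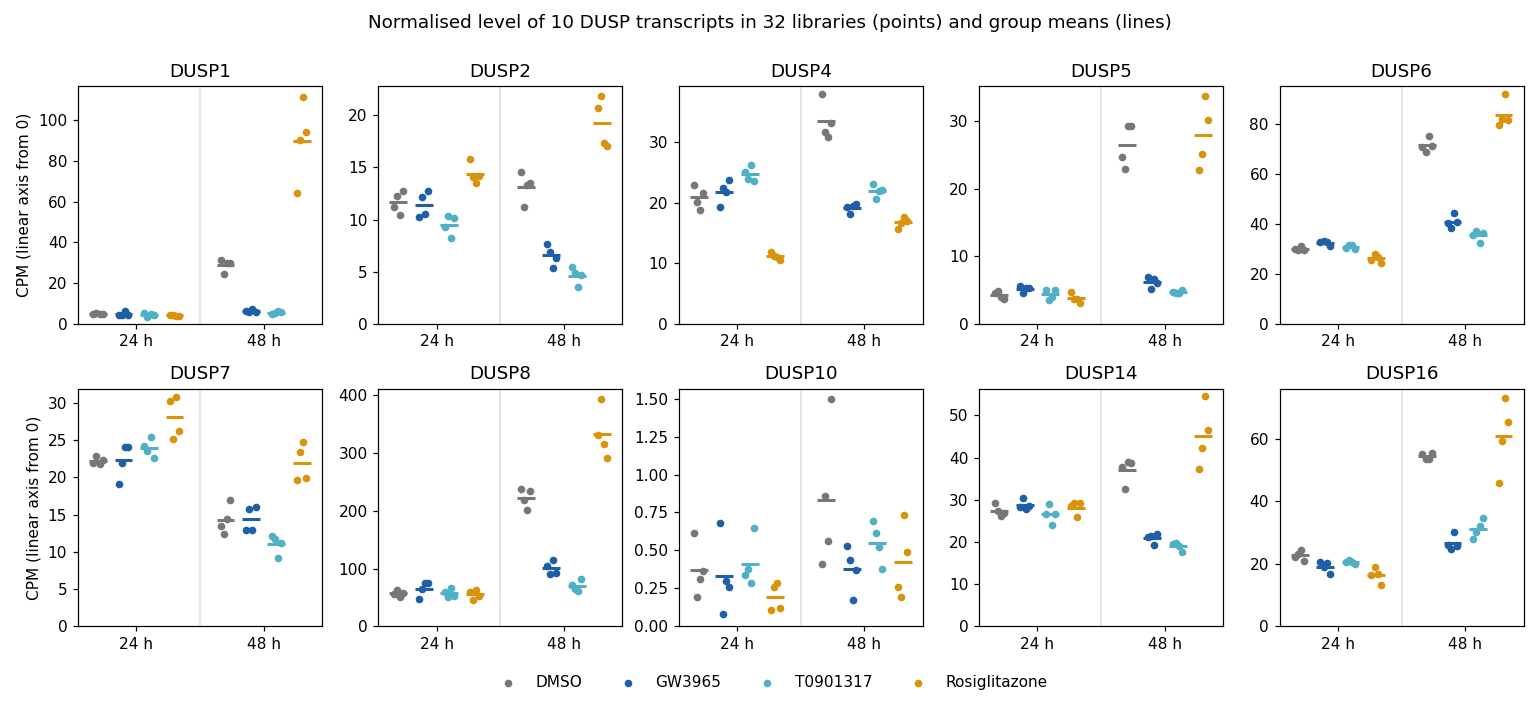
CPM of each DUSP (linear axes from 0, with a scale of its own in each panel) in each of the 32 libraries, coloured by treatment, with horizontal lines at the means of 4 libraries. In DUSP1 and DUSP5 the DMSO libraries of 48 h, at 24.6 to 31.03 and 22.9 to 29.3 CPM, stand above every library with an LXR agonist.

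The DMSO groups themselves differed between the times. From 24 to 48 h in DMSO, 7 of 10 members rose, 5 of them by at least 2-fold, and 1 fell, compared with 19.7% of all genes higher, 5.09% higher by at least 2-fold and 18.9% lower. The median log2 change of the members was 1.20, against 0.00 over all genes. DUSP5 rose 6.31-fold (log2 2.66 ± 0.13), DUSP1 6.01-fold (2.59 ± 0.14), DUSP8 3.93-fold (1.98 ± 0.13), DUSP16 2.40-fold (1.26 ± 0.10) and DUSP6 2.39-fold (1.26 ± 0.06). DUSP4 rose by 0.68 ± 0.07 and DUSP14 by 0.43 ± 0.08 on the log2 scale, DUSP7 fell by 0.63 ± 0.10, and DUSP2 (0.17 ± 0.12) and DUSP10 (1.14 ± 0.45) did not pass. The 24 and 48 h libraries were deposited in separate tables, so time and any difference in handling between the sets cannot be told apart.

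The same change was then read within each drug, a comparison added after the values had been seen. With rosiglitazone, 8 members rose between 24 and 48 h (22.7% of all genes) and DUSP7 fell (20.9%), with DUSP1 rising 22.5-fold (log2 4.49 ± 0.15). With GW3965, only DUSP6 (0.33 ± 0.06), DUSP8 (0.62 ± 0.12) and DUSP16 (0.48 ± 0.10) rose, against 16.2% of all genes, and DUSP2 (-0.81 ± 0.12), DUSP7 (-0.63 ± 0.10) and DUSP14 (-0.46 ± 0.08) fell, against 15.2%. With T0901317, DUSP6 (0.20 ± 0.06) and DUSP16 (0.60 ± 0.10) rose, against 15.8%, and the same 3 members fell, against 16.3%. DUSP1 and DUSP5 did not pass with either LXR agonist, with DUSP1 at 0.35 ± 0.14 and 0.26 ± 0.15 and DUSP5 at 0.25 ± 0.13 and 0.10 ± 0.14.

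The difference between each drug's response at 48 h and at 24 h was tested directly in a fit of all 32 libraries. It was negative and called for 8 members with GW3965, against 11.7% of all genes, and for 8 with T0901317, against 9.95%, and positive for 0 with either (9.96% and 7.49% of all genes). The values were between -2.41 ± 0.19 for DUSP5 and -0.78 ± 0.14 for DUSP16 with GW3965, and between -2.56 ± 0.19 for DUSP5 and -0.66 ± 0.14 for DUSP16 with T0901317. With rosiglitazone it was positive for DUSP1, DUSP6 and DUSP16 (1.38% of all genes) and negative for 0 (1.06%), and DUSP1 had the value 1.91 ± 0.20 (adjusted p = 2.5e-07).

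**Figure D3:**
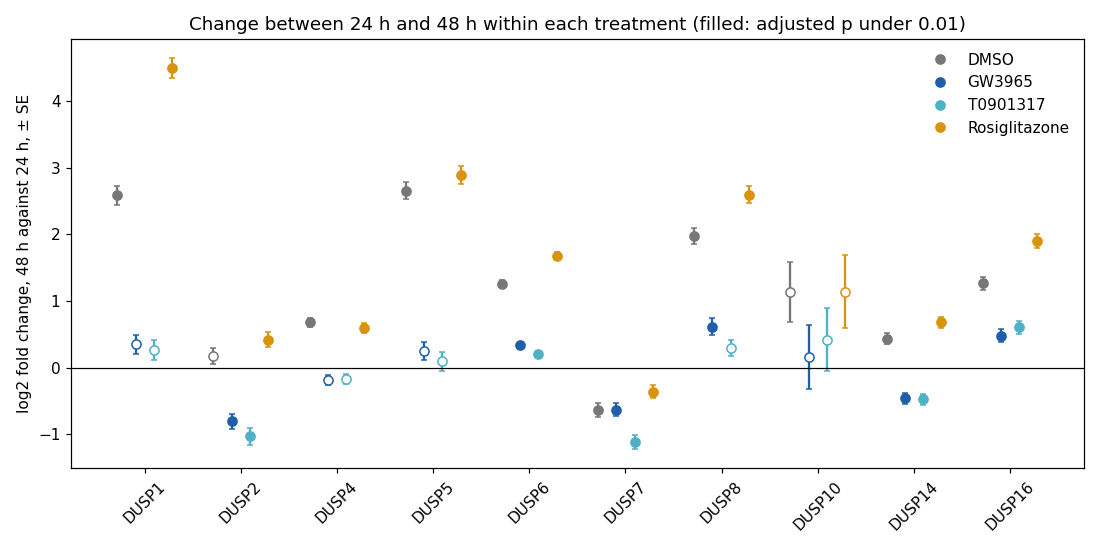
Log2 fold change of each DUSP from 24 to 48 h, with its standard error, within the DMSO (grey), GW3965 (dark blue), T0901317 (light blue) and rosiglitazone (gold) groups; filled points have an adjusted p under 0.01. For DUSP1, DUSP5, DUSP6, DUSP8 and DUSP16 the DMSO and rosiglitazone points lie between 1.26 and 4.49, and the LXR agonist points between 0.10 and 0.62.

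Compared directly, the 2 LXR agonists differed in few members. At 24 h 0 of 10 members differed between GW3965 and T0901317, while 0.193% of all genes were higher and 0.597% lower with GW3965, and DESeq2 also called 0. The members with an unadjusted p under 0.05 were DUSP2 (log2 0.27 ± 0.10) and DUSP4 (-0.19 ± 0.08). At 48 h 1 member, DUSP8, was 1.44-fold higher with GW3965 than with T0901317 (0.52 ± 0.10, adjusted p = 0.0020), against 5.03% of all genes higher and 3.32% lower. That call missed the threshold without T0901317 48 h replicate 2, with an adjusted p of 0.0105, and without GW3965 48 h replicate 3, with 0.0108. DESeq2 called 3 members higher with GW3965, adding DUSP2 and DUSP7. For DUSP1 the difference was 0.16 ± 0.15, with a 95% interval from -0.16 to 0.48.

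Rosiglitazone and the LXR agonists differed in most members at 48 h. Against GW3965, 8 members were higher with rosiglitazone, 7 of them by at least 2-fold, and 0 were lower, where 22.4% of all genes were higher, 5.39% by at least 2-fold, and 22.6% lower. DUSP1 was 14.6-fold higher (log2 3.86 ± 0.15), and DUSP4 was the 1 member with a negative value (-0.21 ± 0.07, adjusted p = 0.017). Against T0901317, 8 members were higher (23.7% of all genes) and DUSP4 was lower (-0.41 ± 0.07, 24.6%), and DUSP1 was 16.3-fold higher. At 24 h the counts were 1 higher and 2 lower against GW3965 (4.60% and 6.09% of all genes) and 1 higher and 3 lower against T0901317 (6.01% and 8.13%). DUSP4 was lower by the most, at -0.97 ± 0.08 and -1.16 ± 0.08.

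The order of the 8 group means was read for each member, and neighbours were compared in the fit of all 32 libraries. Some small differences passed there and not in the fit of 1 time point. The reverse held for DUSP6 with rosiglitazone against DMSO at 24 h, with an adjusted p of 0.0107 in the fit of all 32 libraries. For DUSP1 the 4 groups of 24 h and the 2 LXR agonist groups of 48 h formed 6 consecutive ranks with no neighbours that differed, from 3.98 ± 0.30 CPM with rosiglitazone at 24 h to 6.10 ± 0.84 CPM with GW3965 at 48 h. Only neighbours were compared, and the libraries of these outer groups did not overlap, at no more than 4.33 CPM and no less than 5.46 CPM. DMSO at 48 h, at 28.8 ± 2.9 CPM, and rosiglitazone at 48 h, at 90.0 ± 20 CPM, each stood apart from the rank below. DUSP5 had the same 6 lowest groups, and its 2 highest, DMSO and rosiglitazone at 48 h at 26.5 ± 3.2 and 28.0 ± 4.9 CPM, did not differ. In DUSP6, DUSP8 and DUSP16 the 4 groups of 24 h held the 4 lowest ranks. DUSP4 had rosiglitazone at 24 h, 11.1 ± 0.52 CPM, and at 48 h, 16.8 ± 0.82 CPM, at the bottom, and DMSO at 48 h, 33.5 ± 3.2 CPM, at the top. DUSP2 and DUSP14 had the 2 LXR agonist groups of 48 h at the bottom and rosiglitazone at 48 h at the top. DUSP7 ran the other way in time, with T0901317, DMSO and GW3965 at 48 h lowest and rosiglitazone at 24 h highest, at 28.1 ± 2.8 CPM. No neighbours differed in DUSP10.

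As a description over the 32 libraries, which share treatments and times, log2 CPM of DUSP1, DUSP5, DUSP6, DUSP8 and DUSP16 correlated with each other at Pearson's r between 0.904 and 0.973 in the 10 pairs. DUSP2 and DUSP14 correlated at 0.871. DUSP7 had r between -0.473 and 0.685 with the other members. Of the genes whose average log2 CPM reached 1, those most like DUSP1 were LAMB3 (0.983), TUFT1 (0.982) and NFAT5 (0.981), and those most like DUSP6 were STK40 (0.991), PPP1R15A (0.988) and G0S2 (0.985). DUSP5 was most like MCL1 (0.985), ERRFI1 (0.984) and CDKN2B (0.984). DUSP8 was most like the gene named RP11-1212A22.4 in the table (0.988) and EGR1 (0.983). The other members were most like LPIN2 (0.981, DUSP16), GABPB1 (0.972, DUSP14), EIF4G1 (0.963, DUSP7), YRDC (0.957, DUSP2), SIPA1L2 (0.933, DUSP4) and ZNF432 (0.799, DUSP10).

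Other genes of the pathway were taken from lists, each set beside all genes by its count and its median. At 48 h, 16.1% of all genes were higher and 17.5% lower with GW3965, 14% higher and 16.1% lower with T0901317, and 12.3% higher and 13.1% lower with rosiglitazone. Among the remaining DUSP genes, 8 of 14 were abundant enough to test at 48 h, and 2 fell with GW3965, DUSP18 (log2 -0.41 ± 0.09) and DUSP28 (-0.33 ± 0.08). DUSP28 also fell with T0901317 (-0.35 ± 0.08), where it was the 1 gene called, and rose with rosiglitazone (0.33 ± 0.08). These counts are close to the shares over all genes. The median of these 8 genes was -0.18 with GW3965, against -1.03 for the members.

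Feedback inhibitors outside the DUSP family fell in larger numbers. With GW3965, 13 of 15 were lower and 0 higher, with T0901317 9 were lower and 0 higher, and with rosiglitazone 5 were lower and 2 higher, the last being near the share over all genes. ERRFI1, an inhibitor of the EGF receptor, fell by 3.21 ± 0.10 (log2) with GW3965 and by 3.15 ± 0.10 with T0901317, and had -0.12 ± 0.09 with rosiglitazone, which did not pass. IER3, an ERK-induced stress gene, fell by 1.98 ± 0.10 and 1.90 ± 0.10 with the LXR agonists. SPRY4, a Sprouty inhibitor of receptor signalling, fell by 1.03 ± 0.10, 1.28 ± 0.10 and 1.07 ± 0.10 with GW3965, T0901317 and rosiglitazone. SOCS3, an inhibitor of cytokine receptor signalling, fell by 2.12 ± 0.62 with GW3965 and rose by 2.08 ± 0.44 with rosiglitazone. Its standard errors were the largest among the genes named from this list, so the size of these changes is less certain.

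Most transcripts on a list of ERK outputs were lower with the LXR agonists as well, and ERK activity itself was not measured here. Of 19 tested, 15 were lower with GW3965 and 0 higher, 15 were lower with T0901317 and 1 higher, and 3 were lower with rosiglitazone and 7 higher. EGR1, an immediate early transcription factor, fell by 2.90 ± 0.19 with GW3965 and 3.44 ± 0.19 with T0901317 and had 0.56 ± 0.18 with rosiglitazone (adjusted p = 0.016). EGR2, of the same family, fell by 2.58 ± 0.35 and 2.71 ± 0.35. FOSL1, an AP1 subunit, fell by 2.40 ± 0.09 and 2.72 ± 0.09 with the LXR agonists and rose by 1.14 ± 0.08 with rosiglitazone, and PHLDA1, another gene induced by ERK, fell by 1.69 ± 0.10 and 1.75 ± 0.10 and rose by 1.08 ± 0.09. In DMSO from 24 to 48 h, 15 of these 19 transcripts rose and 0 fell, and 10 of the 15 feedback inhibitors rose and 0 fell. Over the same times 19.7% of all genes were higher and 18.9% lower.

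Genes of the EGF receptor ligands were read as RNA at the same 48 h, and whether their levels bear on those of the members was not tested. With GW3965, 4 of 7 fell, namely AREG (-3.92 ± 0.13), EREG (-3.38 ± 0.12), HBEGF (-2.88 ± 0.13) and BTC (-0.98 ± 0.20), and 0 rose. With T0901317, AREG (-3.15 ± 0.12), EREG (-2.87 ± 0.11) and HBEGF (-2.91 ± 0.13) fell, and 1 ligand rose. Reads of AREG may be shared with a near-identical copy. With rosiglitazone 1 ligand rose and 1 fell.

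The kinases and adaptors themselves were called in both directions. Of 23 ERK cascade genes, 6 rose and 9 fell with GW3965, with a median of -0.09, and 4 rose and 5 fell with T0901317, counts that for T0901317 are near the shares over all genes. ERBB2, a receptor of the EGF receptor family, rose by 0.82 ± 0.10 with GW3965 and the scaffold gene KSR1 by 0.73 ± 0.11, whereas the kinase BRAF fell by 0.81 ± 0.12 and the adaptor GAB1 by 0.72 ± 0.07. Of 22 JNK and p38 cascade genes, 4 rose and 8 fell with GW3965 and 4 rose and 7 fell with T0901317, and the counts that rose are near the shares over all genes. MAPK12, a p38 kinase, rose by 0.87 ± 0.09, and JUN, MAPK8, which encodes a JNK, and MAP2K6, a kinase of p38, fell by 0.80 ± 0.07, 0.70 ± 0.09 and 0.65 ± 0.13. JUN rose by 0.91 ± 0.07 with rosiglitazone.

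**Figure D4:**
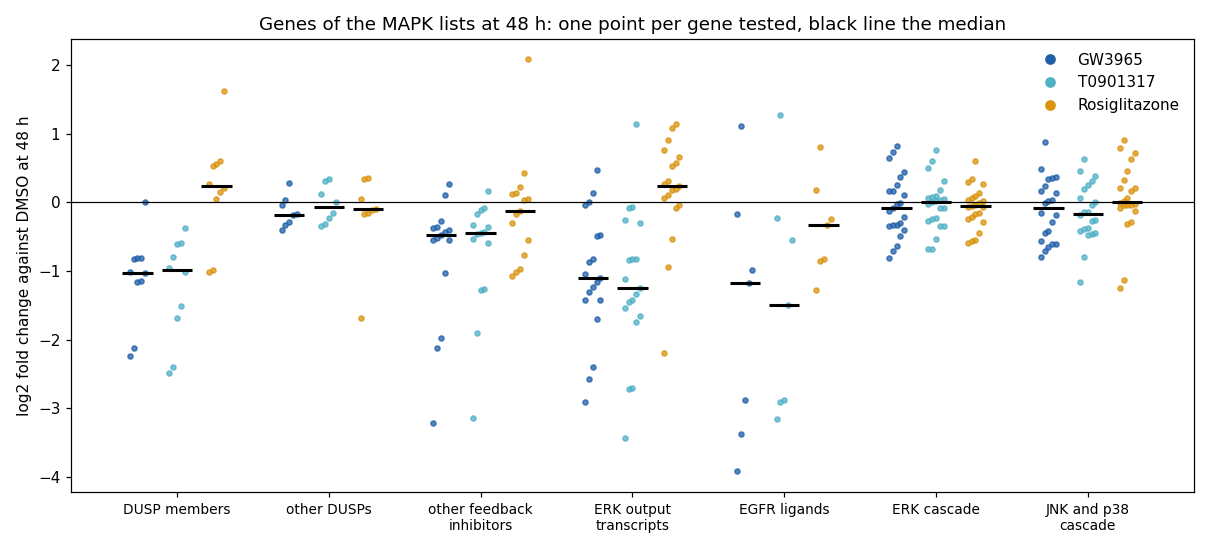
Log2 fold change against DMSO at 48 h of every gene tested in each list, for GW3965 (dark blue), T0901317 (light blue) and rosiglitazone (gold), with black lines at the medians. The medians with GW3965 are -1.03 for the DUSP members, -0.48 for other feedback inhibitors, -1.11 for ERK output transcripts and -1.18 for EGF receptor ligands, and lie near 0 for the ERK cascade (-0.09) and the JNK and p38 cascade (-0.09).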

How the data were processed

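RNA-seq libraries of HT29 cells were used, with 4 replicates in each of 8 groups. The authors deposited unnormalized counts for each Ensembl gene as whole numbers, with 1 table for 24 h and 1 for 48 h. The libraries were made from mRNA with Nextera transposases, which do not mark strand. The submitters' processing notes name hg19, TopHat, Cufflinks, Bowtie and MACS without versions, while counting program and annotation release were not given in the sources used here. The authors compared genes with DESeq.

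Counts were analysed with edgeR 4.0.16 in R 4.3.3. Genes were filtered by filterByExpr and libraries scaled by TMM. Drugs were compared within 1 fit per time point (21781 genes at 24 h and 22470 at 48 h) and the time points in 1 fit of all 32 libraries (23140 genes), by quasi-likelihood F tests. P-values were adjusted over all genes tested by the method of Benjamini and Hochberg, with calls at 0.01 and, for counts of large changes, a fold of 2. Standard errors are the log2 fold change divided by the square root of F, and 95% intervals use the t distribution of the fit. Log2 CPM for correlations used a prior count of 2. All members are named. From each other list up to 4 genes are named, those with the largest change with GW3965 at 48 h among those called, along with up to 3 genes most like a member. A gene that this rule names is not reported here. The members and lists were chosen with earlier results of these data known. Of the members, 9 of 10 identifiers matched the name table given, each under the same symbol.

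Same-numbered libraries did not deviate together (median r 0.023 in 48 pairs of a time point), so numbers were not treated as pairs. No 2 replicates agreed within sampling noise. Alternatives covered DESeq2 1.42.0, scaling, filter, libraries in the fit, a replicate block, the fold cutoff and each library left out. The methods were also run on simulated counts in which few genes differed, unlike the data of 48 h, and no result rests on that run. Motifs and plots were made in Python 3.11.15 with matplotlib 3.10.9. The 34 ChIP-seq peak files were not used here, because their build is hg19 and only GRCh38.p14 sequences were at hand, so no peaks were assigned to members.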

Additional observations from a re-analysis of the deposited data

Results flagged for a closer look

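Of 80 sets of 4 libraries, 10 members in 8 groups, 1 had a library far from the other 3, where chance alone gives about 1 in 20. This was DUSP1 in GW3965 24 h replicate 3, at 6.04 CPM against 4.38 to 4.41 CPM in the others.

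The response to a drug differed between 24 and 48 h, by the test of the difference itself, in 19 cases. With GW3965 the log2 fold change at 48 h minus that at 24 h was -2.24 for DUSP1, -2.41 for DUSP5, -1.36 for DUSP8, -0.98 for DUSP2, -0.92 for DUSP6, -0.89 for DUSP14, -0.86 for DUSP4 and -0.78 for DUSP16. With T0901317 it was -2.33 for DUSP1, -2.56 for DUSP5, -1.68 for DUSP8, -1.21 for DUSP2, -1.06 for DUSP6, -0.91 for DUSP14, -0.85 for DUSP4 and -0.66 for DUSP16. With rosiglitazone it was 1.91 for DUSP1, 0.64 for DUSP16 and 0.43 for DUSP6. These differences share the DMSO libraries of each time, and the DMSO level of 7 members, all among those listed, was itself higher at 48 h.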

How the results depend on the processing

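Of 2896 member fold changes recomputed under the alternatives, 1510 belonged to called differences, of which 1450 kept direction and call, 60 missed the threshold and 0 reversed, and 24 uncalled values became called. The 8 members lower with each LXR agonist at 48 h, and their differences between times, kept the call throughout. The count lower by at least 2-fold, 5 with each, was less stable. With 1 library left out it lay between 4 and 5 with GW3965 and between 4 and 6 with T0901317. Most changes lay in small differences. Scaling by library size alone gave 0 members higher with rosiglitazone than DMSO at 24 h in place of 1, 1 with a positive difference between the rosiglitazone responses in place of 3, and 1 lower (DUSP4) in place of 0 both with rosiglitazone against GW3965 and with GW3965 against T0901317 at 48 h. This scaling moved the median of all genes with rosiglitazone against DMSO to -0.11 at 24 h and -0.19 at 48 h, and the split of all called genes from 1266 higher and 1421 lower to 743 and 2209 at 24 h, and from 2771 and 2949 to 1374 and 5459 at 48 h. At 48 h it moved the split with rosiglitazone from 5034 and 5076 to 3674 and 6546 against GW3965 and from 5327 and 5520 to 3484 and 8023 against T0901317, and with GW3965 against T0901317 from 1131 and 747 to 733 and 1566. From 24 to 48 h with T0901317 the split moved from 3659 and 3779 to 4985 and 2538. With rosiglitazone against GW3965 at 24 h, 2 members were higher in place of 1 with DESeq2 and 0 when only the groups compared were fitted. With GW3965 against T0901317 at 48 h, 2 were higher in place of 1 without the filter on low counts and 3 with DESeq2. With T0901317 from 24 to 48 h, fitting only those groups gave 1 higher in place of 2.

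For rosiglitazone against DMSO at 48 h, the count of members higher, 4 in the main fit, lay between 3 and 6 with each library left out in turn. Under the other alternatives it lay between 3 and 5. With each library left out, the count higher lay between 0 and 1 for rosiglitazone against DMSO and against GW3965 at 24 h. For GW3965 against T0901317 at 48 h it lay between 0 and 2. From 24 to 48 h it lay between 1 and 2 for T0901317 and between 7 and 8 for rosiglitazone. The count lower lay between 1 and 3 for rosiglitazone against T0901317 at 24 h and between 0 and 1 for rosiglitazone from 24 to 48 h. DUSP7 was no longer higher with rosiglitazone than with GW3965 at 24 h without GW3965 replicate 1 or 2 or rosiglitazone replicate 1 or 3. DUSP16 was no longer lower than with T0901317 without any T0901317 replicate of 24 h or rosiglitazone replicate 1, 3 or 4, and without the last DUSP6 was not called either. The rise of DUSP6 with T0901317 was lost without 24 h replicate 1 or 4 or 48 h replicate 1, 2 or 4, and the fall of DUSP7 with rosiglitazone without 24 h replicate 1 or 3 or 48 h replicate 1 or 4. DUSP2 was called higher with GW3965 than with T0901317 without 48 h T0901317 replicate 1 or GW3965 replicate 3. The cause was not tested.

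The replicate block gave 2 members higher in place of 1 with rosiglitazone against GW3965 at 24 h and 2 in place of 1 with GW3965 against T0901317 at 48 h, adding DUSP2 both times, and changed no other member's call. Replicate numbers are shared by label only, and 8 of 32 libraries correlated best with their own number.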
